A study of Rattus norvegicus with 24 samples.

Results

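The 4 genes described here encode dual specificity MAP kinase phosphatases and were taken by their identifiers from a table of 32754 rat genes: Dusp1 (ENSRNOG00000003977), Dusp4 (ENSRNOG00000011921), Dusp5 (ENSRNOG00000014061) and Dusp6 (ENSRNOG00000023896). All 4 were found, and all 4 were among the 15908 genes that passed the filter on low counts. RNA had been sequenced from rat cortical cells cultured for 8 days and then given medium with 250 μM glutamate, or fresh growth medium, with imaging for 4 h afterwards. Cultures received 1 of 3 agents known by code name, IS141, AH609 or AH236, or the solvent DMSO, the control. This gave 8 groups of 3 libraries: IS141, AH609, AH236 and DMSO in glutamate, and IS141, AH609, AH236 and DMSO in medium. The labels do not state the agents' doses, what they are, or when RNA was taken, and they do not say whether the 3 libraries of a group are separate cultures. The p-values therefore reflect variation among libraries, which may be technical. Because the IDs of the table are not paired with names, the label of cortical cells was not checked against cell type markers, and of the MAP kinase pathway only these 4 genes are named.

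MAP kinases such as ERK, JNK and p38 become active when a threonine and a tyrosine in their activation loop are phosphorylated, and phosphatases of this family remove both phosphates. Dusp1 encodes a nuclear phosphatase that acts on p38 and JNK as well as ERK, and Dusp4 encodes a nuclear one that acts on ERK and JNK. Dusp5 encodes a nuclear phosphatase and Dusp6 a cytoplasmic one, both with a preference for ERK. Several of these genes are themselves switched on by MAP kinase signalling and form a feedback loop with it, and in neurons calcium entry through glutamate receptors is a known way to activate ERK.

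The RefSeq promoter windows of Dusp1, Dusp5 and Dusp6 are shown because these genes rose together with glutamate and differed in how far. A window runs from 250 bases before to 50 bases after the annotated start, in the GRCr8 build and on the plus strand: Dusp1 at chr10:17184603-17184902, Dusp5 at chr1:262543524-262543823 and Dusp6 at chr7:35979354-35979653. The counts were made on an older build, so these coordinates are not those of the counted genes. Dusp4 had no entry matched. Capitals mark the core of the cAMP response element (CRE, the motif of the factor CREB) and the CArG box (the motif of serum response factor).
Dusp1: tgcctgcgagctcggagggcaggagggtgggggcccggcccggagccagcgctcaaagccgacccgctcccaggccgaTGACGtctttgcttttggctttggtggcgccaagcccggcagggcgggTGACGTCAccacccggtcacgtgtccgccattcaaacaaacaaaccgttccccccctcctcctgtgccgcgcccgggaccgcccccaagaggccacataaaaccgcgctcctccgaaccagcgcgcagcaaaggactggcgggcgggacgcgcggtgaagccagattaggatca
Dusp5: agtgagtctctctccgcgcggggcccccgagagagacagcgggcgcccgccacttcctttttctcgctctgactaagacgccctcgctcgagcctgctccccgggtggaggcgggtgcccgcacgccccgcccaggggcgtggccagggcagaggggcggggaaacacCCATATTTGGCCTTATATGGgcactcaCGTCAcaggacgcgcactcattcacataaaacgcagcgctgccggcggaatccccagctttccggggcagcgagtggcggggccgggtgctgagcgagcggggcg
Dusp6: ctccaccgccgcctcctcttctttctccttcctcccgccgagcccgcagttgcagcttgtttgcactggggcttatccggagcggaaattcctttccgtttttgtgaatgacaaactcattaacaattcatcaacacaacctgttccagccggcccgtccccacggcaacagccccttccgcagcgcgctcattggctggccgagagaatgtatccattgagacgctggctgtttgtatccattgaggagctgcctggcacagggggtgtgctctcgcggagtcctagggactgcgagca

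The Dusp1 window held the full CRE, TGACGTCA, once, from base -124 to base -117 relative to the start. Searched on both strands, this motif was present in 1.83% of the 33469 rat promoter windows. The core of the CRE, TGACG, was found 3 times in the Dusp1 window, of which 2 overlap within the full CRE, and once in the Dusp5 window, and 21.2% of all windows held it. The Dusp5 window held the CArG box 2 times, side by side from base -82 to base -63, a motif in 1.64% of all windows. Neither motif was present in the Dusp6 window. No window held the AP-1 motif TGANTCA (7.33% of all windows) or TATAAA (14.2%). A match describes letters only, and no binding was measured.

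**Figure D1:**
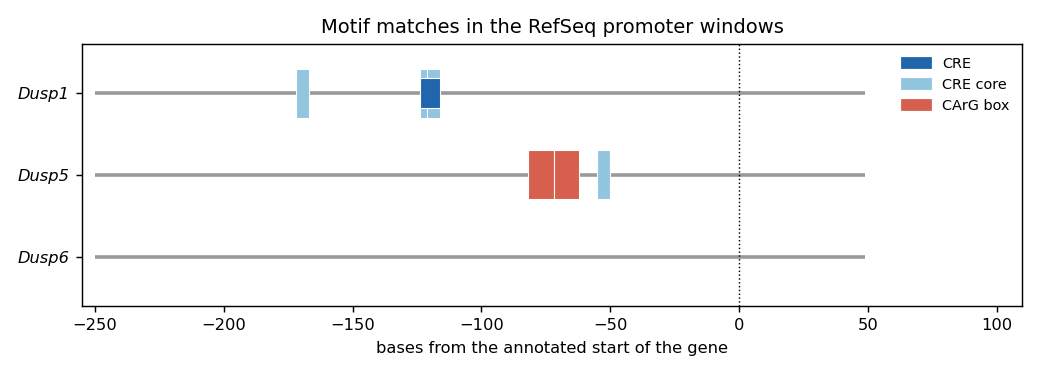
Motif matches in the promoter windows of Dusp1, Dusp5 and Dusp6, by distance in bases from the annotated start (dotted line). Dusp1 carries the full CRE near -120 and a separate CRE core further upstream, Dusp5 carries 2 adjoining CArG boxes and a CRE core, and Dusp6 carries none of these.

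Library totals ran from 22509400 to 35496447 counts, and the lowest count of any of the 4 genes in any library was 120. Levels are given as CPM, counts relative to the library total after TMM scaling and not per gene length, so levels are compared between libraries and never between genes. Glutamate set the libraries apart along the first principal component of log2 CPM, which carried 69.9% of the variance. The second carried 4.72% and set the first DMSO replicate in medium, which scored -48.0, apart from the remaining 23, which scored -12.8 to 19.7. That library also stood apart for the phosphatases: it had 1.75 times as much Dusp1, 1.60 times as much Dusp4, 1.69 times as much Dusp5 and 1.79 times as much Dusp6 as the mean of the 2 other DMSO libraries in medium. Comparisons with DMSO in medium are therefore given with it and without it.

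All 4 phosphatase mRNAs were higher in glutamate than in medium in every treatment. Averaged over the 4 treatments, Dusp1 was 11.03-fold higher, Dusp4 5.57-fold, Dusp5 5.18-fold and Dusp6 3.92-fold. For each gene all 12 glutamate libraries lay above all 12 medium libraries, which was so for 16.7% of the genes tested. With edgeR's quasi-likelihood test and Benjamini-Hochberg adjustment over all genes tested, where a call is an adjusted p under 0.05, 4 of 4 were called higher over all treatments, against 38.8% of genes. The same 4 of 4 were called higher in IS141, AH609, AH236 and DMSO cultures taken singly, against 28.9%, 30.1%, 29.5% and 28.6% of genes. The median log2 fold change of the 4 genes over all treatments was 2.43, and that of all genes tested was 0.00. Together the 4 genes took between 0.0749% and 0.0847% of the counts of a library in glutamate, and between 0.0102% and 0.0224% in medium. In RNA from whole cultures, a change in the number of cells of a type and a change in RNA per cell cannot be told apart.

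Dusp1, the phosphatase with the broadest range of substrates among these, ranged from 255.6 to 312 CPM with a median of 292 CPM in glutamate libraries, against 16.8 to 41.2 CPM with a median of 24.8 CPM in medium libraries. In IS141 cultures it had 264, 295 and 312 CPM in glutamate, against 31.3, 32.2 and 41.2 CPM in medium. In AH609 cultures it had 301, 289.8 and 311 CPM in glutamate, against 26.3, 23.3 and 32.8 CPM in medium. These groups did not overlap, and the glutamate libraries lay close together. In AH236 cultures Dusp1 had 307, 280.3 and 305 CPM in glutamate, against 20.6, 22.6 and 22.4 CPM in medium. In DMSO cultures it had 279.8, 271 and 256 CPM in glutamate, against 31.6, 16.8 and 19.2 CPM in medium. Among the medium groups the spread was widest in DMSO, where replicate 1 was highest. The log2 fold change was 3.06 ± 0.17 (SE) in IS141 cultures, 3.45 ± 0.18 in AH609 cultures, 3.77 ± 0.18 in AH236 cultures and 3.58 ± 0.18 in DMSO cultures. The edgeR adjusted p-values were 5.26e-11, 1.16e-11, 3.28e-12 and 8.79e-12. Without DMSO replicate 1 the DMSO value was 3.895 ± 0.14. Of all genes tested, 0.717% had a larger log2 fold change than Dusp1 over all treatments.

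Dusp4, which acts on ERK and JNK in the nucleus, ranged from 383 to 462 CPM with a median of 425 CPM in glutamate libraries, against 51.9 to 122 CPM with a median of 72.3 CPM in medium libraries. In IS141 cultures it had 453, 462 and 450.4 CPM in glutamate, against 97.9, 104 and 122 CPM in medium. In AH609 cultures it had 460.1, 433 and 435 CPM in glutamate, against 74.9, 69.6 and 89.5 CPM in medium. In both treatments replicate 3 was the highest library in medium. In AH236 cultures Dusp4 had 417, 412 and 416 CPM in glutamate, against 61.9, 63.0 and 61.6 CPM in medium. In DMSO cultures it had 383, 405 and 399 CPM in glutamate, against 87.4, 51.9 and 57.3 CPM in medium. AH236 libraries agreed to within a few CPM in either condition, whereas DMSO libraries in medium spread widely. The log2 fold change was 2.08 ± 0.14 (SE) in IS141 cultures, 2.51 ± 0.14 in AH609 cultures, 2.74 ± 0.14 in AH236 cultures and 2.59 ± 0.14 in DMSO cultures. Adjusted p-values from edgeR were 1.87e-10, 1.37e-11, 3.43e-12 and 9.8e-12. With DMSO replicate 1 left out, the DMSO value was 2.85 ± 0.09. A larger log2 fold change over all treatments was found for 1.79% of genes.

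Dusp5, the nuclear ERK phosphatase, had the lowest counts of the 4 genes and ranged from 31.8 to 38.5 CPM with a median of 34.2 CPM in glutamate libraries, against 3.99 to 11.1 CPM with a median of 6.51 CPM in medium libraries. In IS141 cultures it had 32.2, 31.8 and 32.2 CPM in glutamate, against 9.06, 9.48 and 11.1 CPM in medium. In AH609 cultures it had 38.5, 36.2 and 33.0 CPM in glutamate, against 6.75, 6.28 and 8.31 CPM in medium. Medium libraries of IS141 lay above all those of AH609, while in glutamate those of IS141 were the lower ones. In AH236 cultures Dusp5 had 35.0, 33.4 and 36.6 CPM in glutamate, against 3.99, 4.44 and 4.33 CPM in medium. In DMSO cultures it had 35.9, 35.7 and 32.6 CPM in glutamate, against 8.91, 4.90 and 5.62 CPM in medium. The AH236 libraries in medium were the 3 lowest of all 24. The log2 fold change was 1.70 ± 0.13 (SE) in IS141 cultures, 2.33 ± 0.13 in AH609 cultures, 3.04 ± 0.14 in AH236 cultures and 2.42 ± 0.13 in DMSO cultures. The test gave edgeR adjusted p-values of 8.2e-11, 5.67e-13, 8.06e-15 and 2.86e-13. Without DMSO replicate 1 the value in DMSO cultures was 2.71 ± 0.10. Over all treatments, 1.96% of genes had a larger log2 fold change.

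Dusp6, the cytoplasmic ERK phosphatase, changed least and ranged from 83.3 to 102 CPM with a median of 94.9 CPM in glutamate libraries, against 16.7 to 37.9 CPM with a median of 21.7 CPM in medium libraries. In IS141 cultures it had 99.0, 97.5 and 90.7 CPM in glutamate, against 30.6, 32.5 and 34.0 CPM in medium. In AH609 cultures it had 96.6, 99.6 and 90.1 CPM in glutamate, against 21.8, 20.2 and 25.1 CPM in medium. IS141 libraries in medium again lay above those of AH609, but in glutamate the libraries of both overlapped. In AH236 cultures Dusp6 had 88.4, 93.5 and 95.04 CPM in glutamate, against 17.2, 16.7 and 17.9 CPM in medium. In DMSO cultures it had 83.3, 102 and 94.8 CPM in glutamate, against 37.9, 20.8 and 21.6 CPM in medium. DMSO replicate 1 was the highest of all medium libraries for this gene. The log2 fold change was 1.57 ± 0.15 (SE) in IS141 cultures, 2.09 ± 0.16 in AH609 cultures, 2.42 ± 0.16 in AH236 cultures and 1.80 ± 0.15 in DMSO cultures. For these, edgeR adjusted p-values were 5.58e-08, 1.41e-09, 1.77e-10 and 8.75e-09. Leaving out DMSO replicate 1 gave 2.14 ± 0.08 in DMSO cultures. Genes with a larger log2 fold change over all treatments made up 2.79%.

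**Figure D2:**
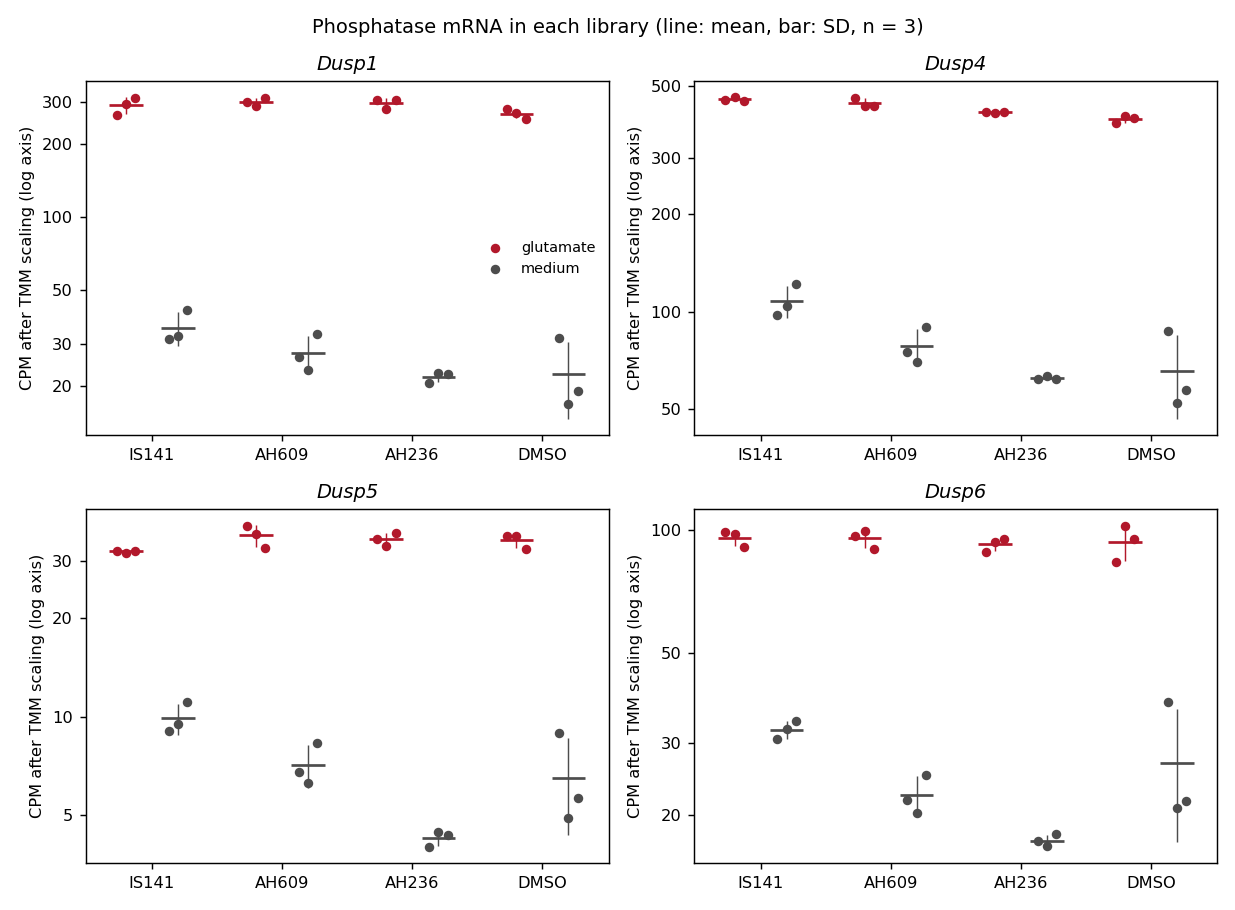
CPM of the 4 phosphatase mRNAs in each library on a log axis, with glutamate and medium side by side for each treatment, points for libraries, lines for means and bars for SD (n = 3). For every gene the 12 glutamate libraries form a narrow band above the 12 medium libraries, and the IS141, AH609 and AH236 groups step down in medium.

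**Figure D3:**
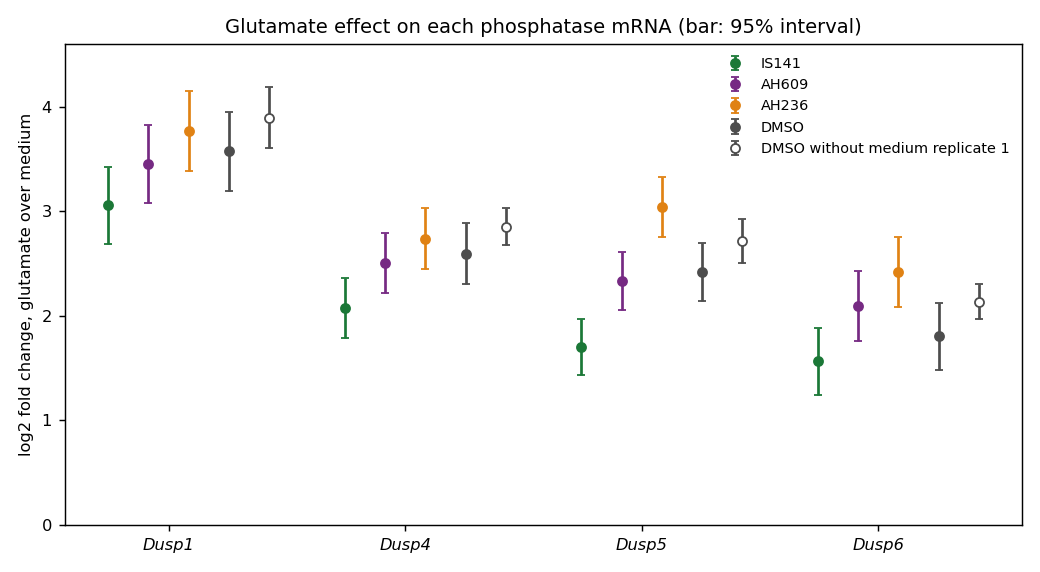
Log2 fold change of each phosphatase mRNA, glutamate over medium, in each treatment, with 95% intervals from the edgeR fit; open points leave out DMSO replicate 1 in medium. Dusp1 lies highest, between 3.06 and 3.77, and for each gene the IS141 value is the lowest and the AH236 value the highest of those with all libraries.

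How far the 4 genes rose was compared within libraries, as the log2 ratio of the counts of a pair of them, which needs no scaling between libraries. Only the change of a ratio is read, since its level depends on gene length. Dusp1 gained on each of the others. The log2 ratio of Dusp1 to Dusp4 was higher by 0.99 ± 0.04 (SE) in glutamate, at -0.56 ± 0.10 (SD, n = 12) against -1.55 ± 0.08 (SD, n = 12) in medium. That of Dusp1 to Dusp5 was higher by 1.09 ± 0.08, and that of Dusp1 to Dusp6 by 1.50 ± 0.09. In none of these 3 pairs did the glutamate and medium libraries overlap. Dusp4 gained on Dusp6 by 0.51 ± 0.07, again with no overlap, and Dusp5 gained on Dusp6 by 0.41 ± 0.07, with overlap. Each of these 5 differences had p = 2e-05 in a two-sided permutation test with 100000 resamples, the smallest these can give, and 2.4e-05 after adjustment over 6 pairs. The ratio of Dusp4 to Dusp5 was higher by 0.10 ± 0.07, which did not pass (permutation p = 0.18, adjusted 0.18). These tests and SEs pool the 12 libraries of a condition without regard to treatment, so differences between treatments add to the spread. By treatment the ratio of Dusp4 to Dusp5 changed by 0.38 in IS141, 0.17 in AH609, -0.30 in AH236 and 0.16 in DMSO cultures. The directions differed, and the difference between treatments was not tested. The other 5 ratios rose in all 4 treatments. Dusp1 over Dusp4 moved by 0.98, 0.96, 1.03 and 0.999 in IS141, AH609, AH236 and DMSO cultures, the most even of the pairs.

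**Figure D4:**
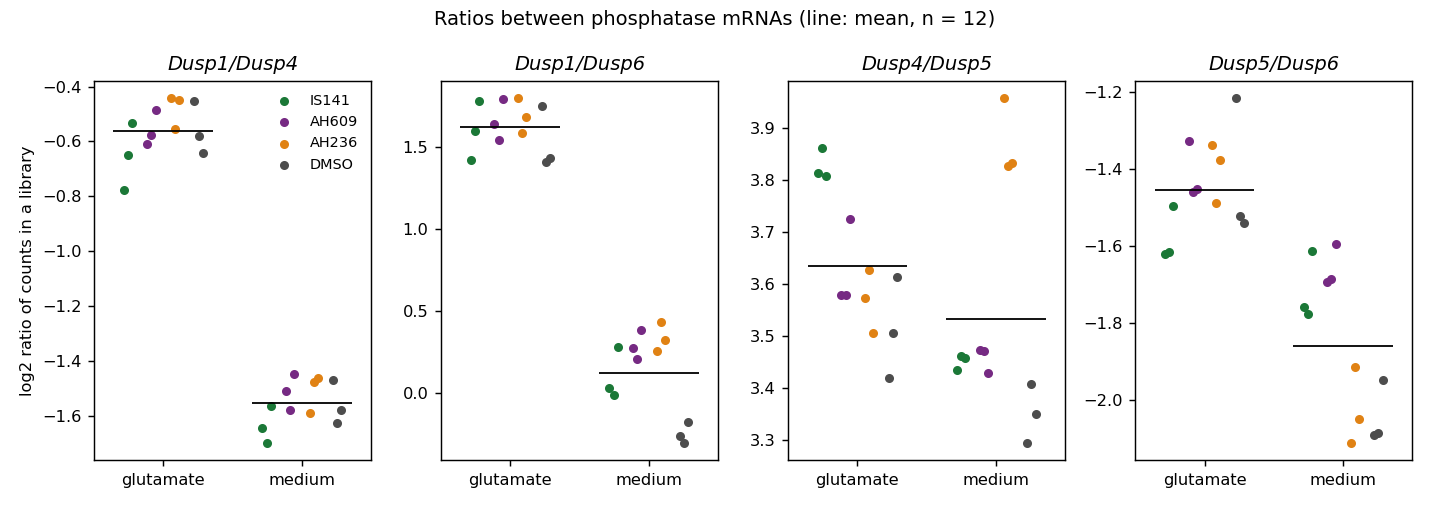
Log2 ratios of counts for 4 of the 6 pairs of phosphatase mRNAs in each of the 24 libraries, coloured by treatment, with the mean of the 12 libraries in each condition as a line. Dusp1/Dusp4 and Dusp1/Dusp6 separate glutamate from medium completely, Dusp4/Dusp5 does not, and its AH236 libraries in medium lie above all others there.

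The question whether the agents altered these mRNAs in cultures exposed to glutamate was addressed next. In glutamate no difference from DMSO was detected for any of the 4 genes with any agent. By edgeR 0 of 4 were called with IS141, AH609 or AH236, where 8.46%, 2.62% and 10.3% of genes were called, and 0 of 4 had an unadjusted p under 0.05 in any of the 3 comparisons. Such a p was found for 3732, 2461 and 3743 of the 15908 genes, in the same order. DESeq2 also called 0 of 4. The widest estimate was that of Dusp4 with IS141, which averaged 455 ± 6.24 CPM with IS141 and 396 ± 11.1 CPM with DMSO (SD over 3 libraries each). These groups did not overlap. AH609 and AH236 libraries in glutamate also lay above all DMSO libraries for Dusp4 and for Dusp1, and IS141 libraries lay below them for Dusp5. In the remaining cases the libraries overlapped those of DMSO. Such separations were not counted over all genes. The log2 fold change of Dusp4 with IS141 was 0.20 with a 95% interval from -0.07 to 0.47 (edgeR adjusted p = 0.372). Fitted without the other groups, this gene was called (adjusted p = 0.0147), and likewise without DMSO replicate 1 in medium (adjusted p = 0.046). These fits called 1323 of 15106 and 2423 of 16119 genes, against 1346 of 15908 in the fit of all 24 libraries. For Dusp5 the intervals ran from -0.35 to 0.13 with IS141, from -0.19 to 0.29 with AH609 and from -0.23 to 0.26 with AH236. Dusp6 had intervals from -0.27 to 0.34, from -0.27 to 0.33 and from -0.32 to 0.29 in the same order. Those of Dusp1 ran from -0.22 to 0.44, from -0.17 to 0.49 and from -0.18 to 0.48. The highest group mean was 1.12 times the lowest for Dusp1, 1.15 times for Dusp4, 1.12 times for Dusp5 and 1.04 times for Dusp6.

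In medium the treatments lay further apart, with the highest group mean 1.60 times the lowest for Dusp1, 1.74 times for Dusp4, 2.32 times for Dusp5 and 1.87 times for Dusp6. For all 4 genes the highest mean was that of IS141 and the lowest that of AH236. Dusp1 averaged 34.9 ± 5.46 CPM with IS141, 27.5 ± 4.85 with AH609, 21.8 ± 1.12 with AH236 and 22.5 ± 7.92 with DMSO (SD, n = 3 each). Dusp4 averaged 108 ± 12.4, 78.0 ± 10.3, 62.2 ± 0.71 and 65.5 ± 19.1 CPM for the same groups. Dusp5 averaged 9.88 ± 1.08, 7.11 ± 1.06, 4.25 ± 0.235 and 6.47 ± 2.14 CPM. All IS141 libraries lay above all AH609 libraries for Dusp4, Dusp5 and Dusp6, and for Dusp1 they overlapped. Separation of 3 from 3 libraries was counted over all genes only for AH236 below IS141 in medium, where 15.5% showed it. Dusp6 averaged 32.3 ± 1.67, 22.4 ± 2.51, 17.3 ± 0.585 and 26.8 ± 9.66 CPM. The DMSO libraries spread across the agent groups, with replicate 1 the highest of them for every gene, and without it the DMSO mean was 18 CPM for Dusp1, 54.6 CPM for Dusp4, 5.26 CPM for Dusp5 and 21.2 CPM for Dusp6. Dusp1 and Dusp4 were then lowest in DMSO, and Dusp5 and Dusp6 still lowest in AH236.

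With IS141 in medium, Dusp1, Dusp4 and Dusp5 were higher than with DMSO, so 3 of 4 were called higher, against 4.48% of genes. The log2 fold change was 0.63 ± 0.17 (SE) for Dusp1, 0.72 ± 0.13 for Dusp4 and 0.61 ± 0.14 for Dusp5 (edgeR adjusted p = 0.0342, 0.00237 and 0.0101). Dusp6 did not pass, at 0.27 ± 0.16 (adjusted p = 0.33). For Dusp4 and Dusp5 all 3 IS141 libraries lay above all 3 DMSO libraries, a separation not counted over all genes. For Dusp1 IS141 replicate 1 lay just below DMSO replicate 1, and for Dusp6 DMSO replicate 1 exceeded every IS141 library. Without DMSO replicate 1 all 4 were called higher, against 7.18% of genes, with log2 fold changes of 0.95, 0.98, 0.90 and 0.61 for Dusp1, Dusp4, Dusp5 and Dusp6. Without DMSO replicate 2, or without IS141 replicate 3, 1 of 4 was called, Dusp4 in each case. Leaving out DMSO replicate 3 or IS141 replicate 2 ended the call of Dusp1. When IS141 and DMSO in medium were fitted alone, 0 of 4 were called, with adjusted p-values of 0.341, 0.22 and 0.272 for Dusp1, Dusp4 and Dusp5. That fit called few genes of any kind, 62 of 14914, against 1269 of 15908 in the fit of all 24 libraries.

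AH609 in medium did not differ detectably from DMSO, with 0 of 4 called by edgeR or by DESeq2. By edgeR 3.06% of genes were called. None of the 4 had an unadjusted p under 0.05, which 2569 of 15908 genes had. Log2 fold changes were 0.29 ± 0.18 (SE) for Dusp1, 0.25 ± 0.13 for Dusp4, 0.14 ± 0.15 for Dusp5 and -0.26 ± 0.16 for Dusp6. This too depended on DMSO replicate 1: without it 3 of 4 were called higher, against 4.46% of genes. Dusp1 was then higher by 0.61 ± 0.13 (edgeR adjusted p = 0.0093), Dusp4 by 0.51 ± 0.08 (adjusted p = 0.000145) and Dusp5 by 0.43 ± 0.12 (adjusted p = 0.0253), while Dusp6 was at 0.08 ± 0.09 (adjusted p = 0.709).

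With AH236 in medium, Dusp5 and Dusp6 were lower than with DMSO, so 2 of 4 were called lower, against 4.95% of genes. Dusp1 and Dusp4 did not differ detectably, and the difference between these pairs was not tested. Dusp5 fell by 0.60 ± 0.16 on the log2 scale (SE; edgeR adjusted p = 0.0142) and Dusp6 fell by 0.63 ± 0.16 (adjusted p = 0.0172). All 3 AH236 libraries lay below all 3 DMSO libraries for both, a separation not counted over all genes. Dusp1 was at -0.04 ± 0.18 (adjusted p = 0.911) and Dusp4 at -0.08 ± 0.13 (adjusted p = 0.786). Without DMSO replicate 1, Dusp6 alone was called lower, at -0.30 ± 0.09 (adjusted p = 0.0256), against 3.39% of genes, and Dusp5 was at -0.31 ± 0.13 (adjusted p = 0.136). Dusp1 was then at 0.28 and Dusp4 at 0.19, neither of them called. Leaving out AH236 replicate 1 ended both calls, and leaving out AH236 replicate 2 ended that of Dusp6. A fit of the AH236 and DMSO groups in medium alone called 0 of 4. It called 87 of 14991 genes, against 1671 of 15908 in the fit of all 24 libraries.

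**Figure D5:**
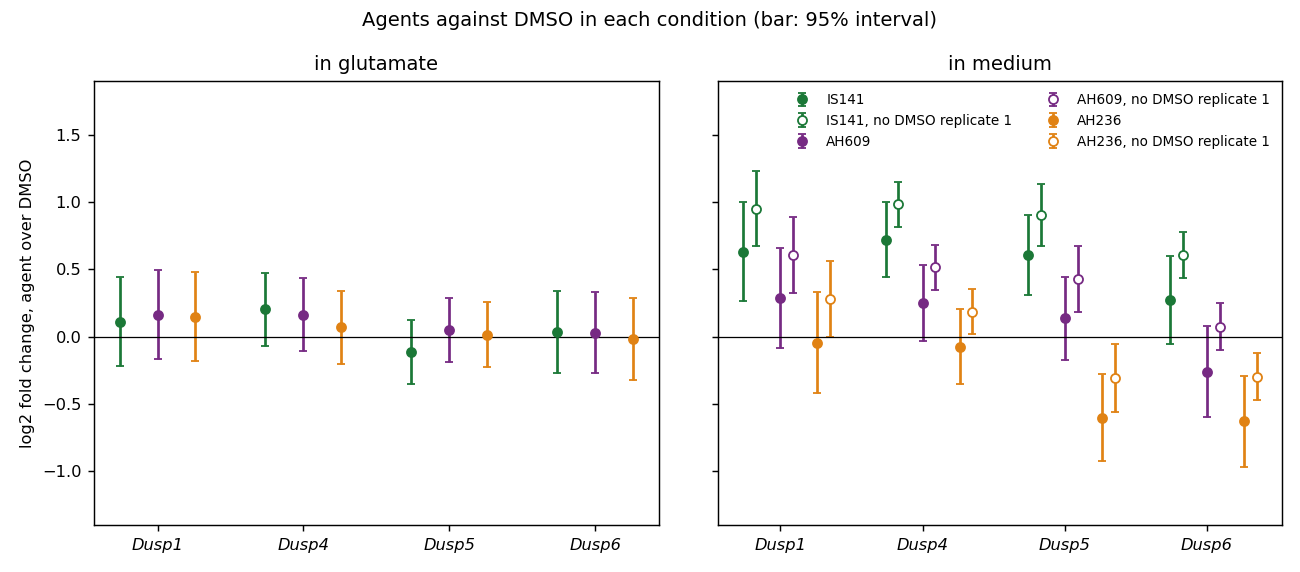
Log2 fold change of each phosphatase mRNA, agent over DMSO, in glutamate (left) and in medium (right), with 95% intervals; open points leave out DMSO replicate 1 in medium. In glutamate all 12 intervals include 0, and in medium the values step down for each gene in the order IS141, AH609, AH236, with or without that library.

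The agents were also compared with one another, which involves the DMSO libraries only through the shared filter, scaling and estimate of spread. Over both media, AH236 was below IS141 for Dusp4, Dusp5 and Dusp6, so 3 of 4 were called lower, against 6.47% of genes. The log2 fold changes were -0.47 ± 0.09 (SE), -0.54 ± 0.10 and -0.48 ± 0.11 (edgeR adjusted p = 0.00234, 0.000459 and 0.00576), and that of Dusp1 was -0.32 ± 0.12 (adjusted p = 0.075). Dusp1 was called too when the compared agents were fitted alone (adjusted p = 0.0051), with library totals (0.0418), and without DMSO replicate 1 (0.0051) or replicate 2 (0.0433) in medium. Between AH609 and IS141, 0 of 4 were called by edgeR or DESeq2, against 2.67% of genes by edgeR. Of the 4, 2 had an unadjusted p under 0.05, as did 3072 of 15908 genes. Between AH236 and AH609, edgeR called 0 of 4, against 0.685% of genes, and DESeq2 called 1 of 4, against 239 of 11882 genes. Of the 4, 2 had an unadjusted p under 0.05, as did 1869 of 15908 genes. Without DMSO replicate 1 in the shared fit, edgeR called 2 and 3 of the 4 genes in that order. Fits of the compared agents alone called 2 and 3 as well. Calls over all genes also rose. For AH609 against IS141 they went from 425 of 15908 to 1374 of 16119 and 1753 of 15487. For AH236 against AH609 they went from 109 of 15908 to 641 of 16119 and 793 of 15453.

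After these values had been seen, AH236 and IS141 were set against each other within each condition. In medium AH236 was lower for 4 of 4 genes, against 3.73% of genes called lower. The 3 AH236 libraries lay below the 3 IS141 libraries for each of them, as they did for 15.5% of genes. The log2 fold changes were -0.67 ± 0.17 (SE) for Dusp1, -0.80 ± 0.13 for Dusp4, -1.21 ± 0.15 for Dusp5 and -0.90 ± 0.16 for Dusp6 (edgeR adjusted p = 0.0236, 0.00129, 5.18e-05 and 0.00215). The call of Dusp1 was lost without AH236 replicate 1, AH236 replicate 3 or IS141 replicate 3 (adjusted p = 0.102, 0.0744 and 0.115), and those of the other 3 genes were kept with any 1 library left out. In glutamate 0 of 4 were called by edgeR or DESeq2, and by edgeR 8.64% of genes were called. None of the 4 had an unadjusted p under 0.05, which 3790 of 15908 genes had. The intervals there ran from -0.30 to 0.37 for Dusp1, from -0.40 to 0.14 for Dusp4, from -0.11 to 0.37 for Dusp5 and from -0.36 to 0.25 for Dusp6. Fitted alone, these 2 groups gave 1 call among the 4, Dusp4, and 2437 of 14959 genes were called.

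Whether the rise with glutamate itself differed between treatments was tested as an interaction. Against DMSO, edgeR called 0 of 4 with IS141, AH609 or AH236, where 0.779%, 0.0251% and 1.55% of genes were called. With IS141 the rise was smaller for 3 genes at an unadjusted p under 0.05, and DESeq2 called Dusp5. Over all genes, 1580 of 15908 had such a p, and DESeq2 called 211 of 13113. The differences on the log2 scale were -0.52 ± 0.23 (SE) for Dusp1, -0.52 ± 0.19 for Dusp4, -0.72 ± 0.18 for Dusp5 and -0.24 ± 0.21 for Dusp6 (edgeR adjusted p = 0.467, 0.284, 0.0756 and 0.802). Without DMSO replicate 1 all 4 passed, against 3.36% of genes called lower, at -0.84, -0.78, -1.02 and -0.58 (adjusted p = 0.00439, 2.32e-05, 7.8e-06 and 0.000653). With AH609, where 1151 of 15908 genes had an unadjusted p under 0.05, the differences lay between -0.12 and 0.29. None of them had such a p, and none was called by DESeq2. With DMSO replicate 1 left out they were -0.45 for Dusp1, -0.35 for Dusp4, -0.38 for Dusp5 and -0.05 for Dusp6, so that of Dusp6 turned sign, and 0 were called (edgeR adjusted p = 0.299, 0.116, 0.241 and 0.923). With AH236 they were 0.19 ± 0.24, 0.15 ± 0.19, 0.62 ± 0.19 and 0.61 ± 0.22 for Dusp1, Dusp4, Dusp5 and Dusp6, with 2 at an unadjusted p under 0.05 and 1 called by DESeq2. Over all genes, 2287 of 15908 had such a p, and DESeq2 called 443 of 11574. The AH236 differences of Dusp5 and Dusp6 were called without DMSO replicate 2 in medium. Without replicate 1 the differences were -0.13, -0.12, 0.32 and 0.28, so those of Dusp1 and Dusp4 turned sign, and 0 were called (edgeR adjusted p = 0.79, 0.669, 0.256 and 0.17).

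The rise was also compared between AH236 and IS141 cultures, again after the values had been seen. It was larger in AH236 for Dusp5, by 1.34 ± 0.19 on the log2 scale (SE; edgeR adjusted p = 0.000291), and 1 of 4 was called higher, against 1.39% of genes. In linear terms the rise of Dusp5 was 8.22-fold in AH236 and 3.25-fold in IS141 cultures. The differences for Dusp1, Dusp4 and Dusp6 were 0.71 ± 0.23, 0.66 ± 0.19 and 0.85 ± 0.22 and did not pass (adjusted p = 0.151, 0.0801 and 0.0515). All 4 were called without DMSO replicate 1 in the shared fit, or when only the groups compared were fitted. Calls over all genes, in either direction, rose as well, from 300 of 15908 to 961 of 16119 and 991 of 15536. Of the 4 genes, 3 were called without DMSO replicate 2 in medium, and 2 without replicate 3. Since Dusp5 in glutamate was 35.0 ± 1.63 CPM with AH236 and 32.1 ± 0.213 CPM with IS141, against 4.25 ± 0.235 and 9.88 ± 1.08 CPM in medium, the difference in rise lay mostly in the medium libraries.

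Within the medium libraries, AH236 stood apart from the other treatments in 2 of the 6 ratios, both with Dusp5, and these differences were not tested. The AH236 libraries had log2 ratios of Dusp4 to Dusp5 between 3.83 and 3.96, while the other 9 libraries lay between 3.29 and 3.47. For Dusp1 to Dusp5 they lay between 2.35 and 2.37, and the other 9 between 1.76 and 1.98. In the other 4 ratios the AH236 libraries overlapped the rest. The DMSO libraries stood apart as well, below all others in medium, in the ratios of Dusp1 to Dusp6, Dusp4 to Dusp6 and Dusp4 to Dusp5. Their highest values were -0.18, 1.40 and 3.41, against -0.01, 1.68 and 3.43 for the lowest library of the agents. These were not tested either. The spread between replicates, as edgeR's biological coefficient of variation, was 14.2% for Dusp1, 11.1% for Dusp4, 9.74% for Dusp5 and 12.8% for Dusp6, against a common value of 7.49%, and 80.7%, 72.1%, 66.5% and 77.1% of genes had a lower one. These coefficients include DMSO replicate 1 in medium and were not computed without it. Leaving that library out lowered the SE of the rise in DMSO cultures for each gene, for Dusp6 from 0.15 to 0.08.

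Likeness to other genes was measured as the root mean square difference of log2 CPM over the 24 libraries, each gene centred on its own mean. Dusp4 and Dusp5 were closest among the 4, at 0.18, and 0 of the 15904 other genes tested were closer to Dusp5 and 1 was closer to Dusp4. Dusp6 lay 0.25 from Dusp5 and 0.31 from Dusp4. Dusp1 was farther from each, at 0.50 from Dusp4, 0.58 from Dusp5 and 0.78 from Dusp6. The gene closest to Dusp1 was ENSRNOG00000052357, at 0.12, and the gene closest to Dusp6 was ENSRNOG00000045738, at 0.13. The 24 libraries share the glutamate contrast, so the measure mostly reads the size of that change.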

How the data were processed

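Values are counts per gene, whole numbers, in a table that the authors deposited for 24 libraries with Ensembl IDs. The submitters' processing notes name STAR 2.7.8a, RSEM 1.3.3, cutadapt 2.3, FastQC 0.11.8, bcl2fastq and the build Rnor_6.0. What each was used for, the annotation release and whether counting used strand were not stated. Deposited counts may be rounded RSEM estimates, and overlapping or antisense genes may share reads. Library totals ran from 22509400 to 35496447 counts, and these limit the precision of low counts only.

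Groups came from sample titles. A pair of AH236 glutamate titles carries the number 2, and the later one is called replicate 3. No replicate pair agreed within sampling noise. The test was that of edgeR 4.0.16 (R 4.3.3; filterByExpr, TMM, robust quasi-likelihood fit of 8 group means over all 24 libraries), with Benjamini-Hochberg adjustment over the 15908 genes tested within each of 17 comparisons and 3 more added after the values had been seen. SE is the absolute log2 fold change over the root of F, and intervals are 95%. Within-library ratios were tested with SciPy 1.17.1. Promoter windows are RefSeq's.

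The members, the lists and the tests were chosen with earlier results of these data known. Of the named genes, all 4 members are given. The 15 lists, with 103 symbols, and the cell type markers gave no result, since 0 IDs could be matched to a symbol. Of the 3 closest genes per member, only the closest to Dusp1 and the closest to Dusp6 are named, by ID. Alternatives were RLE size factors, library totals, no filter, DESeq2 1.42.0, the compared groups alone, the replicate number as a block, and each library left out in turn.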

Additional observations from a re-analysis of the deposited data

Results flagged for a closer look

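The rise of Dusp5 with glutamate differed between treatments in a direct test: it was larger in AH236 than in IS141 cultures by 1.34 ± 0.19 on the log2 scale (SE; edgeR adjusted p = 0.000291). The value ranged from 1.252 to 1.403 with any 1 library left out, and the adjusted p was at most 0.00266. The comparison was chosen after the values had been seen, and the adjusted p does not account for that choice. The difference lay mostly in the medium libraries: the log2 fold change of AH236 against IS141 was -1.21 in medium and 0.13 in glutamate (edgeR adjusted p = 5.18e-05 and 0.553).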

How the results depend on the processing

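The rise with glutamate was called for each of the 4 genes, in each treatment and over all of them, under every alternative run. Over these the log2 fold change ranged from 2.86 to 3.895 for Dusp1, from 1.88 to 2.85 for Dusp4, from 1.51 to 3.07 for Dusp5 and from 1.37 to 2.45 for Dusp6. Scaling by library totals moved the median of all genes in this contrast over all treatments to -0.19. In the other comparisons no called gene changed sign.

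Counts of the 4 genes called moved as follows. With the compared groups alone they were 0 for IS141 and for AH236 against DMSO in medium, 1 for IS141 against DMSO in glutamate, 2 for AH609 against IS141 and 3 for AH236 against AH609 over both media, 1 for AH236 against IS141 in glutamate, and 4 for the glutamate effect in AH236 against IS141. With DESeq2 they were 1 for AH236 against AH609, 1 for the IS141 and 1 for the AH236 change of the glutamate effect, and 3 for the effect in AH236 against IS141. No filter gave 2 for IS141 against DMSO in medium. Library totals gave 1 for AH236 against AH609. For AH236 against IS141 over both media the count was 4, in place of 3, with library totals and with the compared groups alone. With any 1 of 24 libraries left out, counts against DMSO in medium were 1 to 4 with IS141, 0 to 3 with AH609 and 0 to 2 with AH236. They ranged from 0 to 1 for IS141 against DMSO in glutamate, from 0 to 4 for the IS141 and from 0 to 2 for the AH236 change of the glutamate effect, from 0 to 2 for AH609 against IS141, from 0 to 3 for AH236 against AH609, from 3 to 4 for AH236 against IS141 over both media and in medium, and from 1 to 4 for the effect in AH236 against IS141. Calls over all genes moved with the setting too. With the compared groups alone they went from 1269 to 62 for IS141 against DMSO in medium. For the glutamate effect in AH236 against IS141 they went from 300 to 991. Apart from what was fitted, the cause was not tested. With a library left out, the change of the log2 ratio ranged from 0.98 to 1.01 for Dusp1 over Dusp4, from 1.07 to 1.13 for Dusp1 over Dusp5, from 1.46 to 1.53 for Dusp1 over Dusp6, from 0.46 to 0.53 for Dusp4 over Dusp6 and from 0.38 to 0.43 for Dusp5 over Dusp6. That of Dusp4 over Dusp5, which did not pass, ranged from 0.08 to 0.14.

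The replicate number did not pair the libraries: of 84 same-numbered pairs, 4 had deviations correlated above 0.1, and 7 of 24 libraries correlated best with their own number. As a block it changed no count, with 3 called for IS141 and 2 for AH236 against DMSO in medium.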
